A study of Drosophila melanogaster with 14 samples.

Results

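Embryos laid by mothers that carried the Slbp alleles 10 and 12 in trans, and that had been mated to wild-type Oregon R males, were compared with embryos of the wild-type (wt) strain. Both collections ran from 0 to 180 min after egg laying and were sequenced as 2 RNA libraries each, so the comparison rests on 4 of the 14 libraries of the series. Of the 15288 genes in the deposited table, the 9770 with a mean of at least 5 normalized counts in Slbp 10/12 or wt embryos were tested. The same table holds 2 libraries of embryos from Slbp 10/15 mothers and 2 of embryos from grp fs1 mothers, an allele of grapes, which encodes the checkpoint kinase Chk1, collected over the same window. A separate table of wt RNA covers whole embryos of 0 to 45 min and, from 90 to 180 min, extracts labelled cytoplasmic or nuclear. The genotype named is that of the mother, and the sources do not say whether the 2 libraries of a group came from separate collections, so a p-value here reflects how far the libraries spread and no more.

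Stem-loop binding protein (SLBP) binds the hairpin that ends the mRNAs of the replication-dependent histones, which carry no poly(A) tail, and is needed for the processing of those mRNAs. The Drosophila embryo runs its first nuclear cycles in a shared cytoplasm on RNA and protein loaded by the mother. As the cycles slow at the mid-blastula transition, the zygotic genome is switched on widely, cells form around the nuclei, and many maternal RNAs are destroyed.

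The Slbp 10/12 libraries held 22204590 and 23410870 reads assigned to genes and the wt libraries 17368684 and 18813175, and 9539 and 9640 genes were above 0 in Slbp 10/12, against 11499 and 11524 in wt. RNAs known from muscle, cuticle and nerve of much older embryos differed between the groups. The summed level of 19 muscle sarcomere genes was 10292 and 9874 normalized counts in Slbp 10/12 and 39408 and 43031 in wt, and the Slbp 10/12 sum was almost all Tm1, a tropomyosin gene also expressed outside muscle, at 9343 and 9115 (9498 and 9219 in wt). The muscle myosin heavy chain gene Mhc had 10.1 and 3.50 normalized counts in Slbp 10/12, against 6053 and 6787 in wt, and in grp fs1 it had 0.933 in replicate 1 and 1123 in replicate 2. Mlc1, encoding a muscle myosin light chain, and TwdlB, a cuticle gene, were at 0 in both Slbp 10/12 libraries. The early wt libraries of the other table had sarcomere sums of 53838 and 49683. The cuticle list summed to 8849 and 9017 in Slbp 10/12, against 11942 and 15442 in wt, and the neuron list to 5688 and 4950, against 9989 and 11072. These sums do not show how far most members fell. Between means, 59 of the 67 cuticle genes and 16 of the 20 neuron genes tested were at least 4-fold lower, with list medians of -4.08 and -4.59. Of these markers 17 of 19 sarcomere genes, 54 of 67 cuticle genes, 16 of 20 neuron genes and 6 of 10 hemocyte and fat body genes fell by the test described next. Eggshell genes summed to 5.49 and 21.8 in Slbp 10/12 and 5.82 and 9.82 in wt, and testis genes to 0 and 2.62, against 17.5 and 20.7. The part of such RNA in the falls below was not tested. In bulk libraries, fewer cells of a type and less RNA per cell cannot be told apart.

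In Slbp 10/12 embryos 3249 genes fell and 1537 rose by limma's moderated test on log2(normalized count + 1), with a Benjamini-Hochberg adjusted p below 0.05, which is 33.3% and 15.7% of the genes tested and 49.0% together. Counts of calls in the gene lists below stand beside these shares. Both Slbp 10/12 libraries lay below both wt libraries in 4790 genes (49.0%) and above them in 2897 (29.7%). The split depended on the scale: 32.1% of the calls were rises with the deposited scaling and 3.15% with upper quartile scaling, which moved the median log2 fold change of these genes, -0.11 with the deposited scaling, by -0.38. The falls were deep and the rises shallow. Of the falls, 2415 were at least 4-fold between the group means and 654 were under 2-fold, whereas 95 rises were at least 4-fold and 1365 were under 2-fold. In 1950 of the falls the Slbp 10/12 mean was below 5 normalized counts, and among the 7374 genes at or above 5 in both groups 1299 fell. Of the rises, 49 had a wt mean below 5. The filter admitted 2298 genes with a Slbp 10/12 mean below 5 and 98 with a wt mean below 5. With at least 5 in every Slbp 10/12 and wt library, 1347 genes rose and 1129 fell, so the excess of falls was not seen there. A 4-fold fall between means was seen in 2707 genes (27.7%) and a 4-fold rise in 111 (1.14%). Among the 4192 genes that averaged 1000 or more in wt, 98 were at least 4-fold lower. No read was found in either Slbp 10/12 library for 80 genes that averaged 50 or more in wt, against 0 genes in the other direction. With wt replicate 1 left out, 1573 genes fell and 856 rose, and without wt replicate 2 the counts were 1605 and 1105. They were 2037 and 868 without Slbp 10/12 replicate 1, and 2248 and 1018 without replicate 2. Calls that held in all 4 of these fits numbered 1231 falls and 577 rises.

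**Figure D1:**
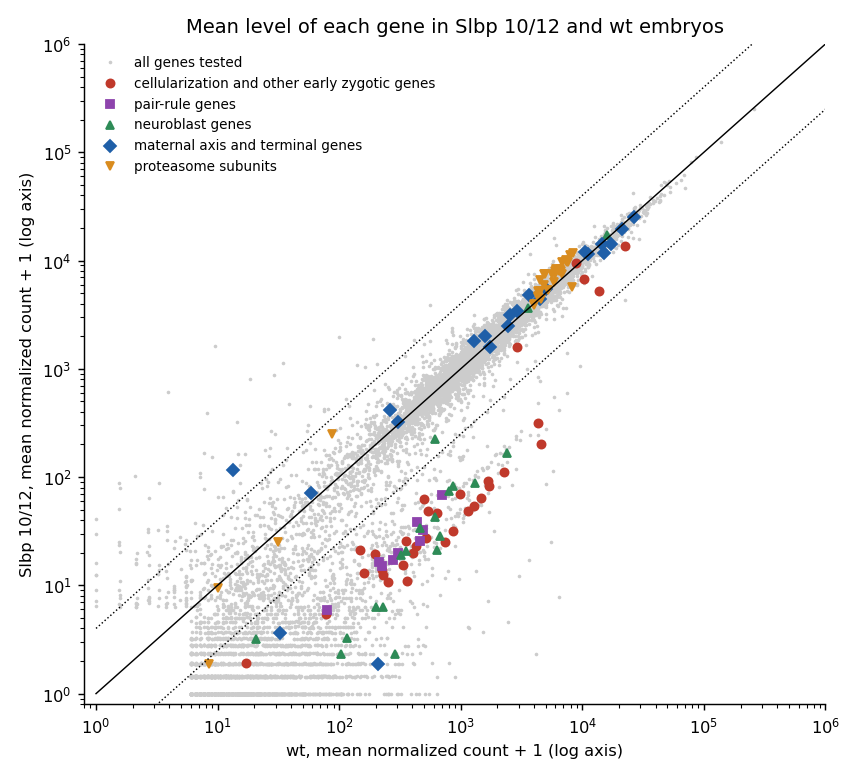
Mean normalized count plus 1 of each gene tested in Slbp 10/12 (vertical log axis) against wt embryos (horizontal log axis), 2 libraries each. The solid line marks equal levels and the dotted lines 4-fold differences. Early zygotic genes (circles), pair-rule genes (squares) and most neuroblast genes (triangles) lie in a band below the lower dotted line, with list medians of -4.01, -3.90 and -3.92 on the log2 scale, and most maternal axis genes (diamonds) lie along the solid line.

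Slbp itself had 211 and 236 normalized counts in Slbp 10/12 embryos, against 2776 and 2873 in wt. The libraries of the 2 groups were far apart, and the fall was -3.66 on the log2 scale (SE 0.16, adjusted p = 5.1e-05). Slbp 10/15 embryos had 262 and 186, and grp fs1 embryos 2470 and 2183. Slbp lies on chromosome arm 3R of BDGP6.54 at 29152074 to 29153266, on the minus strand, and its transcripts have at most 2 exons. The deposited tables were made on an older build, so these positions come from the newer annotation. The next gene, Rpn2, which encodes the largest non-ATPase subunit of the 19S proteasome cap, starts 258 bases away on the plus strand (29153524 to 29157255), so that both genes are read away from each other. Rpn2 had 5419 and 5989 normalized counts in Slbp 10/12, against 7772 and 8682 in wt. It fell by 0.53 (SE 0.11, adjusted p = 0.0082), a call that was lost without wt replicate 1 (adjusted p = 0.051), wt replicate 2 (0.087) or Slbp 10/12 replicate 1 (0.055). In Slbp 10/15 embryos Rpn2 stood at 9165 and 8417, above both Slbp 10/12 libraries, and the direct difference was -0.62 (SE 0.11, adjusted p = 0.035, and 0.12 to 0.16 without any 1 library of the Slbp 10/12, Slbp 10/15 or wt groups).

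On the other side of Slbp, ligatin had 1464 and 1561 normalized counts in Slbp 10/12, against 1287 and 1213 in wt, a rise of 0.28 that was not kept without wt replicate 1 (adjusted p = 0.062), wt replicate 2 (0.11) or Slbp 10/12 replicate 2 (0.10). The glycolytic gene Pglym78 had 5106 and 5011, against 6558 and 6533, a fall of 0.37 that was lost without either wt library (adjusted p of 0.067 and 0.060). Of the 6 annotated genes on either side of Slbp, CG14509 and CG14515, of unknown role, kept their calls without any 1 of the 4 libraries. CG14509 had 0 and 0.874 normalized counts in Slbp 10/12 against 26.8 and 29.5 in wt. It was also low in Slbp 10/15 (5.49 and 1.98) and grp fs1 (0.933 and 3.77). CG14515 was at 0 in both libraries of Slbp 10/12, Slbp 10/15 and grp fs1, against 5.82 and 6.55 in wt (adjusted p = 0.0025, and 0.053 by edgeR). The uncharacterized CG14511, 4 genes away, had 231 and 231, against 144 and 152, with an adjusted p of 0.021 that became 0.059 to 0.079 without any 1 of the 4 libraries.

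**Figure D2:**
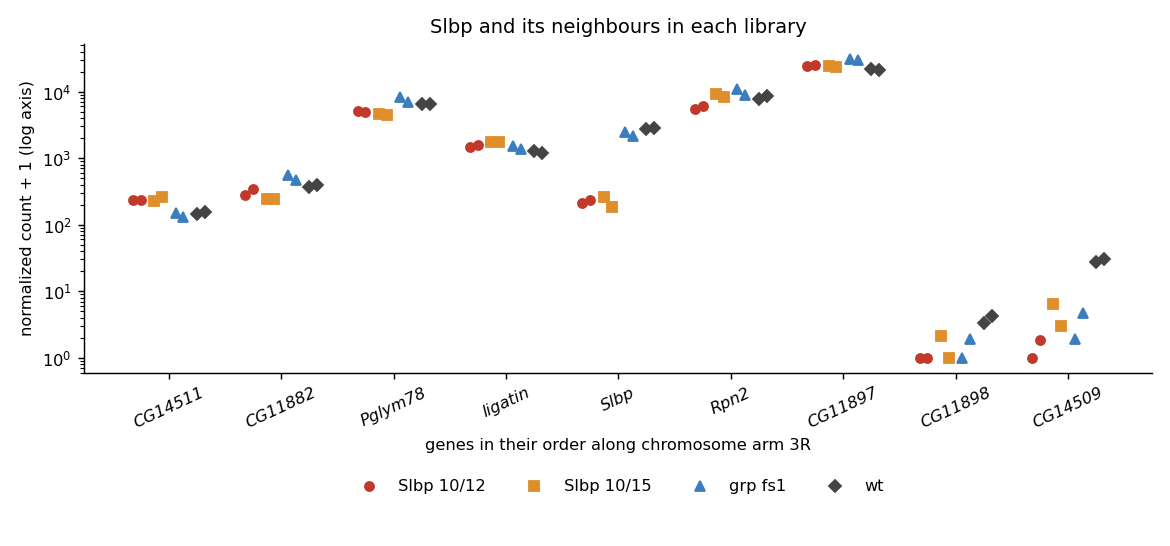
Normalized count plus 1 (log axis) of Slbp and the 4 genes on either side, in their order along 3R, for the 2 libraries of each genotype. Slbp is at 211 and 236 in Slbp 10/12, against 2776 and 2873 in wt, and Rpn2 beside it is at 5419 and 5989, against 7772 and 8682.

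The counted reads of the stem-loop histone mRNAs, the known targets of SLBP, were lower in Slbp 10/12 in the families with enough reads to compare. Outside the His2B family few such reads were counted in any library. The table lists 111 replication-dependent histone genes, and 17 reached the level tested, of which 13 fell and none rose, with a median of -2.41 (-2.05 with the 3 genes at 0 set to a floor of 3 reads per library). Of these 17, 13 were His3 copies, whose whole family summed to 16.5 and 12.2 in Slbp 10/12. Nearly all of them thus entered the test through their wt level, so the filter favoured falls. With at least 5 in every Slbp 10/12 and wt library, 2 histone genes fell and none rose. The copies of a family are nearly identical in sequence, so reads of one copy can be counted for another or left uncounted. How such reads were treated is not known here. The family sums below therefore cover counted reads only and may miss part of the RNA. All 23 His2B copies together had 611 and 521 normalized counts in Slbp 10/12 and 2431 and 2337 in wt. Nearly all of this was the copy His2B:CG17949, with 590 and 502, against 2298 and 2207, a fall of 2.05 (SE 0.22, adjusted p = 0.00091) that held without any 1 of the 4 libraries. The 23 His1 copies, of the linker histone, summed to 19.2 and 17.5 in Slbp 10/12 and 54.7 and 49.1 in wt, and the 23 His3 copies to 16.5 and 12.2, against 118 and 119. His2A had at most 3 reads and His4 at most 6 in each of these 4 libraries, which is too few to compare.

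Counts of histone falls moved with the fit: 7 genes fell without wt replicate 1, 7 without wt replicate 2, 8 without either Slbp 10/12 library, 8 by edgeR and 4 by DESeq2. In grp fs1 embryos His2B summed to 1424 and 1496, between the Slbp 10/12 and wt levels, and His1 to 185 and 211, above wt.

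Factors that transcribe and process histone mRNA changed by less than Slbp itself, which is one of them. Of 16 measured, 4 fell and 3 rose, with a median of 0.00. CstF-50, a cleavage stimulation subunit, had 857 and 864 normalized counts in Slbp 10/12, against 1262 and 1260 in wt, and fell by 0.55 (SE 0.06, adjusted p = 0.0011). The histone locus body scaffold gene mxc had 6926 and 7176, against 5762 and 5918, and rose by 0.27 (SE 0.05, adjusted p = 0.0045), but stood at -0.11 with upper quartile scaling. Cpsf73, the endonuclease that cuts histone pre-mRNA, had 1464 and 1642, against 2095 and 2026, a fall of 0.41 that was lost without either wt library or Slbp 10/12 replicate 1 (adjusted p of 0.058 to 0.081). The rises of Cpsf100 and FLASH and the fall of mute were each lost without 1 or more libraries of the 4.

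Among 17 replacement histones and early chromatin proteins, 7 fell and 1 rose, with a median of -0.13. Caf1, the p55 subunit of several histone chaperone and chromatin complexes, had 6211 and 6491 normalized counts in Slbp 10/12 embryos, against 10661 and 10030 in wt, and fell by 0.70 (SE 0.06, adjusted p = 0.00049). It stood at 11127 and 11835 in Slbp 10/15, and its direct difference was -0.85 (SE 0.06, adjusted p = 0.0018). The chromatin protein HmgD had 16255 and 14161 in Slbp 10/12, against 21434 and 20425, a fall of 0.46 (adjusted p = 0.0033). Its relative HmgZ had 27.5 and 64.7, against 1081 and 1096, but this fall was lost without either wt library (adjusted p of 0.12 and 0.11) or Slbp 10/12 replicate 1 (0.084), and its level varied between the Slbp 10/15 libraries (90.0 and 5.94). BigH1, the embryonic linker histone, was the one member that rose, with 9977 and 9298 against 7600 and 7445 (+0.36, adjusted p = 0.0048), and stood at -0.02 with upper quartile scaling. The falls in this list numbered 2 without wt replicate 1, 4 without wt replicate 2 and 5 without either Slbp 10/12 library.

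Genes of the replication checkpoint and of DNA repair, the pathway that slows the early cycles, changed in both directions by small amounts. Of 26 measured, 5 rose and 3 fell, with a median of 0.02 and extremes of 0.37 and -0.36. The Chk1 gene grp itself had 13977 and 13868 normalized counts in Slbp 10/12 and 14113 and 13306 in wt, and lok, which encodes Chk2, had 13575 and 13269, against 12512 and 11587 (adjusted p = 0.14). PCNA, the replication clamp, had 5720 and 5614, against 6955 and 7005, and fell by 0.30 (SE 0.05, adjusted p = 0.0029). The ATRIP gene mus304 had 2073 and 1989, against 1652 and 1608, and rose by 0.32 (adjusted p = 0.0043), with a value of -0.06 under upper quartile scaling. Without wt replicate 1 the list had 2 rises and 1 fall, without wt replicate 2 it had 3 and 1, without Slbp 10/12 replicate 1 it had 2 and 3, and without replicate 2 it had 1 and 2.

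Cell cycle genes had few calls, and the deepest falls were in zygotic inhibitors of mitosis. Of 22 Cdc25, cyclin and mitotic inhibitor genes 4 fell and 2 rose (median -0.07), and of 25 S phase genes 2 fell and 3 rose (median -0.04). The mitotic cyclin gene CycB had 93067 and 86743 normalized counts in Slbp 10/12, against 85186 and 86467 in wt. The Cdc25 phosphatase gene string (stg) had 8595 and 8680, against 6168 and 8433 (adjusted p = 0.14), with a log2 change of 0.49 without wt replicate 2. Tribbles (trbl), which promotes the breakdown of Cdc25 proteins, had 1545 and 1615, against 2805 and 3027, and fell by 0.88 (SE 0.12, adjusted p = 0.0018). The Cdk1 inhibitor gene Z600, also known as fruhstart, had 50.3 and 11.4, against 934 and 779 (-5.08, adjusted p = 0.011, and 0.11, 0.090 and 0.062 without wt replicate 1, wt replicate 2 and Slbp 10/12 replicate 2). Falls in the cyclin list numbered 1 without wt replicate 1, without wt replicate 2 or without Slbp 10/12 replicate 2, and 3 without replicate 1, and its rises numbered 1 without wt replicate 1 or Slbp 10/12 replicate 2, 2 without wt replicate 2 and none without Slbp 10/12 replicate 1. None of the S phase calls held in all 4 of these fits.

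Apoptosis and p53 pathway genes were called in about the shares of all genes tested, 33.3% falls and 15.7% rises. Of 16 measured in the p53 pathway and apoptosis list, 6 fell and 3 rose, with a median of -0.17. Diap1, an inhibitor of caspases, had 3141 and 3181 normalized counts in Slbp 10/12, against 4064 and 4013 in wt, and fell by 0.35 (SE 0.05, adjusted p = 0.0026). It was the only one of these calls kept without any 1 of the 4 libraries. The death activator grim was at 0 in both Slbp 10/12 libraries, against 15.1 and 26.2 in wt, at least 7.70-fold lower against a floor of 3 reads per library (adjusted p = 0.0072, and 0.054 and 0.071 without wt replicates 1 and 2). Of the other death activators, skl had 12.8 and 13.1, against 51.2 and 49.1, and fell by 1.87 (adjusted p = 0.032, and 0.10 to 0.12 without any 1 of the 4 libraries), and rpr and hid did not pass: rpr had 6.41 and 6.12, against 71.0 and 69.8 (adjusted p = 0.088, and 0.023 and 0.022 without Slbp 10/15 replicates 1 and 2), and hid 305 and 198, against 137 and 218. p53 had 825 and 808, against 664 and 684, a rise of 0.28 that was lost without any 1 of the 4 libraries (adjusted p of 0.059 to 0.093) and stood at -0.10 with upper quartile scaling.

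The genes that build cells out of the syncytial blastoderm, with other genes switched on first in the zygote, fell almost throughout. Of 33 measured 32 fell and none rose, with a median of -4.01, and 19 falls held without any 1 of the 4 libraries (21, 20, 29 and 29 falls without wt replicate 1, wt replicate 2, Slbp 10/12 replicate 1 and replicate 2). Together they had 37481 and 38706 normalized counts in Slbp 10/12, against 85528 and 83499 in wt. Among the smaller falls were abundant RNAs. The gene slam, which drives the growth of the cleavage furrow, had 5480 and 5060, against 13705 and 13905 (-1.39, SE 0.16, adjusted p = 0.0011). The gene kuk, which elongates the nuclei, had 12934 and 14071, against 22963 and 21519, and fell by 0.72 (SE 0.09, adjusted p = 0.0013). The exception was RhoGEF2, a maternally supplied exchange factor, with 8903 and 10245, against 8632 and 9190 (adjusted p = 0.33).

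Other members had larger falls. The furrow gene nullo had 33.0 and 16.6 normalized counts in Slbp 10/12, against 315 and 395 in wt, and fell by 3.86 (SE 0.54, adjusted p = 0.0022). The actin regulator Sry-alpha had 416 and 214, against 4654 and 4013 (-3.85, adjusted p = 0.0031, and 0.054 without wt replicate 1). Both mutant libraries lay below both wt libraries for each of these genes. The uncharacterized gene CG13711 had 11.9 and 12.2, against 168 and 153 (-3.62, SE 0.33, adjusted p = 0.00063).

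Segmentation genes fell in each tier. Among gap and head genes 13 of 16 fell and 1 rose (median -3.72), and among pair-rule genes 8 of 9 fell (median -3.90). Segment polarity genes fell in 9 of 11 cases (median -3.60), and Hox genes and cofactors in 10 of 12 (median -3.82). At the top of the hierarchy, the gap gene kni had 25.6 and 13.1 normalized counts in Slbp 10/12, against 492 and 506 in wt, and fell by 4.69 (SE 0.68, adjusted p = 0.0023). The gap genes gt, with 30.2 and 20.1 against 465 and 419, and tll, with 28.4 and 15.7 against 367 and 410, had log2 changes of -4.11 and -4.13 (adjusted p of 0.0023 and 0.0021). Kr had 76.0 and 89.1, against 1025 and 1077, with an adjusted p of 0.0040 that became 0.058 and 0.055 without wt replicates 1 and 2.

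At the next tier, the pair-rule gene run had 31.1 and 32.3 normalized counts in Slbp 10/12, against 441 and 538 in wt, and fell by 3.90 (SE 0.48, adjusted p = 0.0013). The stripe gene eve had 4.58 and 5.24, against 80.3 and 75.3, a fall of 3.74 (adjusted p = 0.0019), and slp1 had 21.1 and 54.2, against 426 and 453, a fall of 3.66 (adjusted p = 0.0029). All 9 pair-rule genes were at least 4-fold lower between means. Only opa did not pass, at 79.6 and 54.2 against 662 and 731 (adjusted p = 0.18), a gene whose Slbp 10/15 libraries differed greatly (207 and 1.98) and whose adjusted p was 0.048 when either of them was left out.

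Segment polarity genes set the borders within each segment, and Hox genes give the segments their identity. The ligand gene Wnt4 had 0.915 and 0.874 normalized counts in Slbp 10/12, 1 read in each library, against 154 and 143 in wt. Its ratio of wt to Slbp 10/12 was 166 (exact Poisson 95% interval 45.9 to 1368, counting error only). The ligand gene wg had 25.6 and 48.1, against 401 and 472, with an adjusted p of 0.0080 that became 0.075, 0.079 and 0.053 without wt replicate 1, wt replicate 2 and Slbp 10/12 replicate 1. The Hedgehog receptor gene ptc had 68.6 and 90.9, against 703 and 1124, and did not pass (adjusted p = 0.13, and 0.020 and 0.019 without Slbp 10/15 replicates 1 and 2). Zen, a homeobox gene of the dorsal midline, had 43.0 and 27.1, against 528 and 499, and fell by 3.87 (SE 0.38, adjusted p = 0.00075). The posterior Hox gene abd-A had 7.32 and 20.1, against 269 and 367, with an adjusted p of 0.017 that became 0.11, 0.13 and 0.098 without wt replicate 1, wt replicate 2 and Slbp 10/12 replicate 1. Exd, a cofactor of Hox proteins that is loaded maternally, had 5283 and 5165, against 5650 and 5391 (adjusted p = 0.28).

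Members whose RNA is also loaded by the mother include hb, which had 3692 and 3656 normalized counts in Slbp 10/12, against 4161 and 3990 in wt (adjusted p = 0.26). The gene cnc, which encodes a bZIP factor used in the head and in redox control, had 9177 and 9217, against 6810 and 6487, and rose by 0.47 (SE 0.06, adjusted p = 0.0013). Leaving out wt replicate 1 or wt replicate 2 left 5 and 6 falls among gap and head genes, 3 and 3 among pair-rule genes, 2 and 3 among segment polarity genes, and 5 and 5 among Hox genes. Without Slbp 10/12 replicate 1 or 2 the counts were 9 and 10, 6 and 5, 3 and 6, and 6 and 8. In a fit of the Slbp 10/12 and wt libraries alone, 14, 9, 11 and 11 fell.

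**Figure D3:**
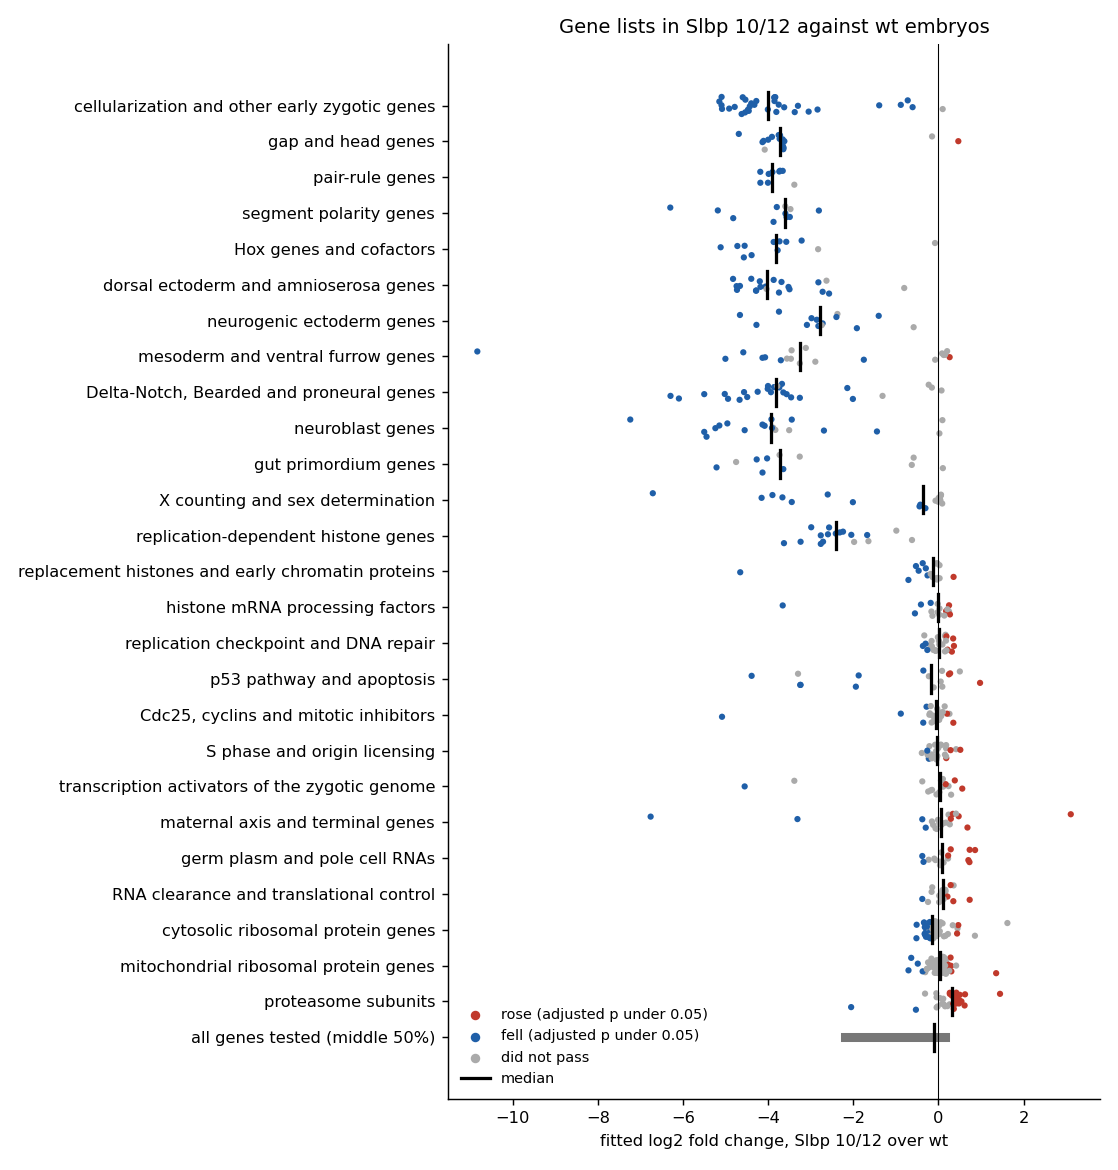
Fitted log2 fold change, Slbp 10/12 over wt, of each measured member of 26 gene lists, with the list median as a black bar and the middle 50% of all genes tested in the bottom row. Blue points fell, red points rose and grey points did not pass. The 11 zygotic lists at the top have medians from -4.04 to -2.78, and the maternal axis, germ plasm and RNA clearance lists below them have medians near 0.

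Among genes that subdivide the embryo from back to belly, most of those measured in the dorsal and neurogenic ectoderm fell. In the mesoderm list the share that passed as falls was near the 33.3% of all genes tested. Yet 12 of its 19 genes were at least 4-fold lower between means, beside 27.7% of all genes tested. Of 21 dorsal ectoderm and amnioserosa genes 18 fell (median -4.04). Among ligands of the BMP pathway, which specifies dorsal fates, scw had 46.7 and 20.1 normalized counts in Slbp 10/12, against 951 and 848 in wt, and fell by 4.82 (SE 0.49, adjusted p = 0.00080). The extracellular regulators tld, a protease, and tsg, a binding protein, had 64.1 and 33.2 against 1329 and 1180, and 23.8 and 14.0 against 407 and 403. Their log2 changes were -4.73 for tld (adjusted p = 0.0025) and -4.40 for tsg (adjusted p = 0.00055). The antagonist gene sog had 64.1 and 60.3, against 840 and 852 (-3.75, adjusted p = 0.044, and 0.13 to 0.21 without 1 of the 4 libraries and 0.070 and 0.069 without grp fs1 replicates 1 and 2).

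In the neurogenic ectoderm 11 of 14 genes fell (median -2.78). The EGF ligand gene spi had 671 and 726 normalized counts in Slbp 10/12, against 1879 and 1814 in wt, a fall of 1.40 (SE 0.16, adjusted p = 0.0011). Egfr, the receptor, had 83.3 and 131, against 2051 and 2031, with an adjusted p of 0.015 that became 0.052 to 0.13 without any 1 of the 4 libraries.

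In the mesoderm list 7 of 19 fell and 1 rose, with a median of -3.25, and 12 were at least 4-fold lower between means. The cardiac and visceral muscle determinants tin and bap had 2.75 and 0.874 against 65.2 and 60.0, and 2.75 and 0.874 against 78.0 and 90.5, and had log2 changes of -4.58 and -5.004 (adjusted p of 0.0031 and 0.0017). The ventral determinant sna had 25.6 and 14.0, against 319 and 383 (-4.13, adjusted p = 0.0067, and 0.072 and 0.076 without wt replicates 1 and 2). The secreted fold gene fog, with 2888 and 2885 against 2799 and 2637, and the muscle factor gene Mef2, with 1912 and 1812 against 1611 and 1734, did not pass (adjusted p of 0.20 and 0.074, and 0.048 for Mef2 without wt replicate 2). Mes2 had 2425 and 2514, against 1976 and 2138, a rise of 0.26 that stood at -0.12 with upper quartile scaling and was lost without Slbp 10/12 replicate 2 (adjusted p = 0.056). The deepest fall of the list was Act57B, a muscle actin gene that also belongs to the sarcomere list, with 0.915 and 1.75, against 3850 and 4542.

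Genes of neural specification also fell. In the Delta-Notch, Bearded and proneural list 21 of 26 fell (median -3.82). BobA, a Bearded family inhibitor of the ubiquitin ligase Neuralized, had 67.7 and 106 normalized counts in Slbp 10/12, against 1030 and 1109 in wt, and fell by 3.64 (SE 0.45, adjusted p = 0.0014). The Notch target E(spl)mdelta-HLH had 0.915 and 1.75, against 177 and 181, a ratio of wt to Slbp 10/12 of 134 (exact Poisson interval 46.0 to 652, adjusted p = 0.00035). The receptor gene N (13256 and 14123 against 10913 and 15493), the ligand gene Dl (4763 and 4988 against 5334 and 5510) and the ligase gene neur (2826 and 2872 against 3016 and 3691), all abundant in these libraries, did not pass. N passed without wt replicate 2 (adjusted p = 0.028), neur without wt replicate 1 (0.031) and Dl without either grp fs1 library (0.045).

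Of 19 neuroblast genes 14 fell, with a median of -3.92. The neuroblast transcription factor gene dpn had 77.8 and 68.2 normalized counts in Slbp 10/12, against 858 and 752 in wt, and fell by 3.44 (SE 0.41, adjusted p = 0.0012). The Snail family gene wor had 0 and 2.62, against 283 and 290, a ratio of wt to Slbp 10/12 of 219 (exact Poisson interval 74.8 to 1060, adjusted p = 0.0017). Brat (16509 and 17831 against 16026 and 16112) and numb (3805 and 3442 against 3371 and 3758), which divide fates between daughters and are loaded by the mother, did not pass. The muscle and neuron marker sums given above moved in the same direction as the mesoderm and neuroblast lists. In the gut primordium list 5 of 11 fell (median -3.73), among them GATAe, at 0 in both Slbp 10/12 libraries, against 23.3 and 55.6 in wt, at least 14.7-fold lower (adjusted p = 0.0018).

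Without wt replicate 1, falls numbered 8 in the dorsal ectoderm list, 3 in the neurogenic list, 3 in the mesoderm list, 10 in the Delta-Notch list, 7 in the neuroblast list and 2 in the gut list. Without wt replicate 2 they numbered 8, 3, 2, 9, 7 and 3. They were 9, 3, 5, 12, 11 and 3 without Slbp 10/12 replicate 1, and 14, 8, 6, 17, 12 and 5 without replicate 2. With the Slbp 10/12 and wt libraries alone, 21, 13, 13, 23, 17 and 9 genes of these lists fell.

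X chromosome counting and dosage compensation genes included deep falls. Of 18 measured 10 fell, with a median of -0.36. The X counting gene sisA had 35.7 and 21.8 normalized counts in Slbp 10/12, against 337 and 397 in wt (-3.66, adjusted p = 0.0034, and 0.050 and 0.052 without wt replicates 1 and 2). The dosage compensation gene msl-2 had 101 and 95.2, against 582 and 616, and fell by 2.60 (SE 0.41, adjusted p = 0.0030). The noncoding RNA roX2 was at 0 in both Slbp 10/12 libraries, against 96.6 and 111, at least 38.7-fold lower (adjusted p = 0.0024). Its maternally supplied partner msl-1 had 9688 and 10374, against 10241 and 9738. The other noncoding RNA, roX1, had 298 and 261 in Slbp 10/12, against 4917 and 5056 in wt, with an adjusted p of 0.018 that became 0.074 to 0.14 without any 1 of the 4 libraries. Falls numbered 6 without wt replicate 1 and 5 without wt replicate 2, and 7 and 9 without Slbp 10/12 replicates 1 and 2.

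The activators that open and transcribe the zygotic genome had few calls. Of 16 measured 3 rose and 1 fell, with a median of 0.04. The RNA of the pioneer factor Zelda (vfl) had 7339 and 9077 normalized counts in Slbp 10/12, against 9149 and 10147 in wt (-0.24, adjusted p = 0.14). Mad, which carries the BMP signal to the nucleus, had 3615 and 3687, against 2287 and 2677, and rose by 0.56 (SE 0.08, adjusted p = 0.0022). The GAGA-binding factor gene psq had 13304 and 14250, against 10091 and 11008, a rise of 0.39 (adjusted p = 0.0040). Both genes kept a positive value, 0.18 and 0.00, but did not pass with upper quartile scaling. The only fall was grh, a gene of later epidermis and neuroblasts, with 33.0 and 22.7, against 593 and 744 (adjusted p = 0.022, and 0.077 to 0.15 without any 1 of the 4 libraries).

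The maternal axis, RNA clearance and germ plasm lists had medians close to that of all genes, -0.11. The maternal axis list had 5 rises and 4 falls in 22 genes (median 0.06), the RNA clearance and translational control list 4 rises and 1 fall in 18 (median 0.11), and the germ plasm list 6 rises and 2 falls in 16 (median 0.09). These medians lay at -0.32, -0.28 and -0.29 with upper quartile scaling, so their sign depended on the scale. The anterior determinant bcd had 3684 and 3174 normalized counts in Slbp 10/12, against 2897 and 2898 in wt (adjusted p = 0.075), and the posterior organizer osk had 26383 and 24306, against 27714 and 25411 (adjusted p = 0.60). The decay factor smg had 49899 and 49267, against 43733 and 44526 (adjusted p = 0.095). None of these passed, except bcd without Slbp 10/12 replicate 2 (adjusted p = 0.046).

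Some genes of these lists stood above that level. Whether the RNA of each gene named here was loaded by the mother was not tested. Aub, a Piwi family protein of the germ plasm, had 4577 and 4364 normalized counts in Slbp 10/12, against 2706 and 2778 in wt, and rose by 0.70 (SE 0.05, adjusted p = 0.00034). The translational regulator orb had 9000 and 9693, against 5103 and 6171, a rise of 0.73 (SE 0.11, adjusted p = 0.0028). Ndl, an ovarian protease that starts the dorsoventral cascade, had 110 and 120, against 12.8 and 12.0, a rise of 3.11 (SE 0.38, adjusted p = 0.0014). With upper quartile scaling the values of aub and orb stayed positive, at 0.32 and 0.35, without passing. In the other direction the actin nucleator gene capu had 1114 and 1120, against 1495 and 1355, and fell by 0.35 (adjusted p = 0.0083). The sulfotransferase gene pip had 0.915 and 0.874, 1 read in each library, against 176 and 238 in wt, a ratio of wt to Slbp 10/12 of 231 (exact Poisson interval 63.98 to 1908, adjusted p = 0.00031).

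The number of calls in these 3 lists changed with the library left out. With 1 of the 4 Slbp 10/12 and wt libraries left out, the maternal axis median ran from 0.05 to 0.08. That of the RNA clearance list ran from 0.07 to 0.15, and that of the germ plasm list from 0.05 to 0.11. The lipid transport genes Rfabg (83.3 and 87.4 normalized counts in Slbp 10/12, against 4712 and 5293 in wt) and Apoltp (9.15 and 5.24, against 642 and 701) had log2 changes of -5.85 and -6.40 (adjusted p of 5.1e-05 and 0.00020). They belong to a list of 11 yolk and lipoprotein genes in which 3 fell and 1 rose. The riser was the lipophorin receptor gene LpR2, with 4269 and 4303, against 1956 and 2878 (+0.85, adjusted p = 0.0046).

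**Figure D4:**
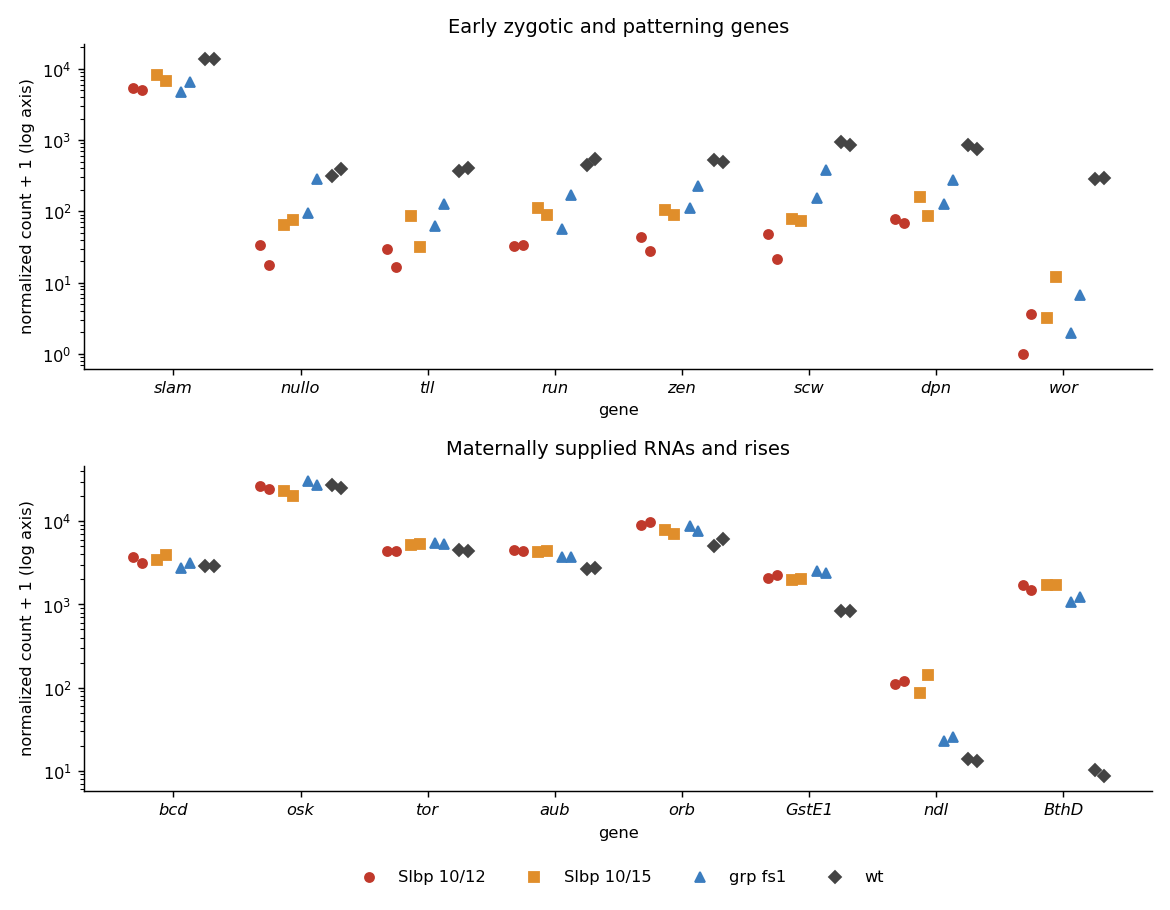
Normalized count plus 1 (log axis) of 16 genes in the 2 libraries of each genotype. In the upper panel the Slbp 10/12 libraries lie below both wt libraries for each of the 8 zygotic genes, from slam (5480 and 5060 against 13705 and 13905) to wor (0 and 2.62 against 283 and 290). In the lower panel bcd, osk and tor did not pass, and aub, orb, GstE1, ndl and BthD lie above wt.

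Proteasome subunit genes mostly rose by small amounts. The proteasome breaks down ubiquitin-tagged proteins in a core of stacked alpha and beta rings capped by a regulatory particle of Rpt and Rpn subunits. Of 35 genes 21 rose and 2 fell, with a median of 0.32, and 17 rises held without any 1 of the 4 libraries. All 7 beta ring genes and 6 of the 7 alpha ring genes rose, with medians of 0.43 and 0.39. The exception, Prosalpha1, had only 8.24 and 8.74 normalized counts in Slbp 10/12, against 11.6 and 6.55 in wt. Of the 6 Rpt genes 4 rose (median 0.32), and of 12 Rpn genes 3 rose and 1, the Slbp neighbour Rpn2, fell (median 0.14). With upper quartile scaling no subunit rose, 7 fell and the median was -0.06.

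The most abundant of these genes, Prosalpha4, had 11624 and 10690 normalized counts in Slbp 10/12 embryos, against 8015 and 7748 in wt, and rose by 0.50 (SE 0.07, adjusted p = 0.0018). The catalytic subunit gene Prosbeta1 had 7883 and 7135, against 4908 and 4812, a rise of 0.63 (SE 0.07, adjusted p = 0.0011). Among the lid subunits Rpn5 had 12514 and 10786, against 8556 and 8062, and rose by 0.48 (adjusted p = 0.0029). The Slbp 10/12 libraries lay above both wt libraries for each. The deubiquitinase gene Rpn11 had 3600 and 4222, against 4150 and 3914, and did not pass (adjusted p = 0.70).

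**Figure D5:**
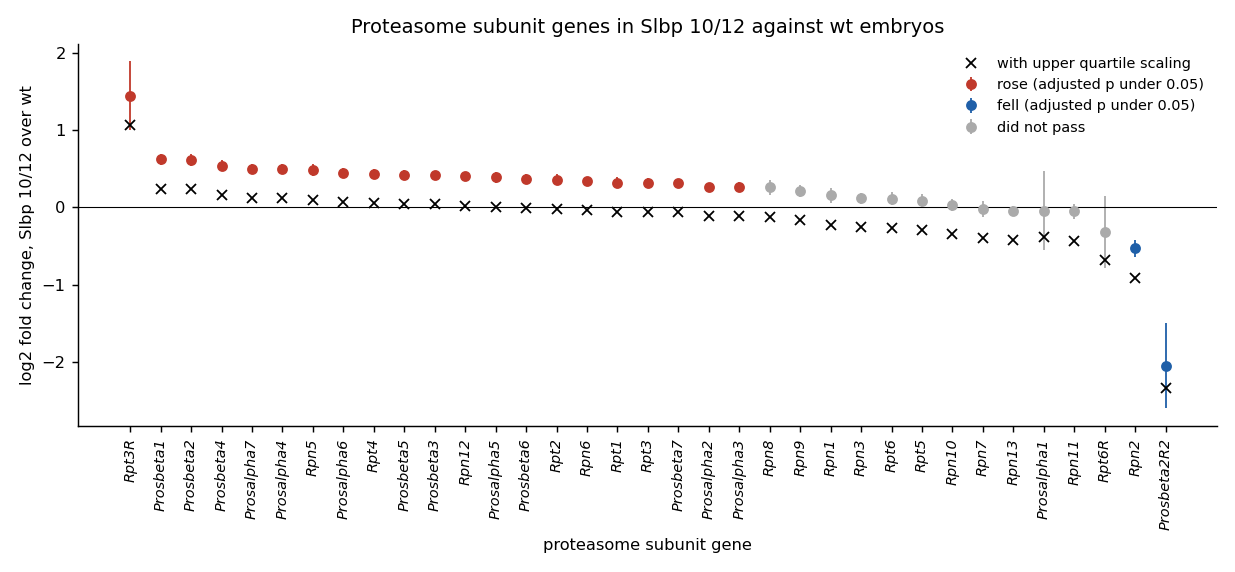
Fitted log2 fold change, Slbp 10/12 over wt, of the 35 proteasome subunit genes, sorted, with bars of 1 standard error. Red points rose, blue points fell and grey points did not pass with the deposited scaling, and crosses give the value with upper quartile scaling. The median is 0.32 with the deposited scaling and -0.06 with upper quartile scaling.

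Cytosolic ribosomal protein genes fell in about the share of all genes tested, 33.3%. Of 88 measured 30 fell and 2 rose, with a median of -0.15 beside -0.11 for all genes, and 4 falls held without any 1 of the 4 libraries. The deepest of these falls was RpS12, with 13123 and 13159 normalized counts in Slbp 10/12, against 18943 and 18632 in wt (-0.52, SE 0.07, adjusted p = 0.0018). The most abundant member, RpS3A, had 51744 and 47172, against 51441 and 48776, and did not pass. The rises of RpL28 and RpL34a were lost without wt replicate 1 or Slbp 10/12 replicate 2 (adjusted p of 0.061 to 0.13), and that of RpL34a also without Slbp 10/12 replicate 1 (0.077). The number of falls ranged from 9 without wt replicate 1 and 12 without wt replicate 2 to 14 and 11 without Slbp 10/12 replicates 1 and 2, and was 9 by edgeR and 53 by DESeq2. Mitochondrial ribosomal protein genes had 6 rises and 4 falls in 72 (median 0.03). Without wt replicate 1 they had 4 rises and 2 falls, without wt replicate 2 they had 3 and 2, without Slbp 10/12 replicate 1 they had 2 and 3, and without replicate 2 they had 3 and 3.

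Stress and redox genes included calls in both directions. Of 15 heat shock and stress genes 6 fell and 1 rose, with a median of -0.25, beside falls of 33.3% over all genes tested. The rise was lost without any 1 of the 4 libraries, and the falls numbered 4 and 3 without wt replicates 1 and 2, and 5 and 4 without Slbp 10/12 replicates 1 and 2. The co-chaperone gene DnaJ-1 had 5350 and 4808 normalized counts in Slbp 10/12, against 7988 and 7693 in wt, and fell by 0.63 (SE 0.06, adjusted p = 0.00073). The endoplasmic reticulum chaperone gene Hsc70-3 had 18372 and 18578, against 25375 and 25285, a fall of 0.46 (adjusted p = 0.0018). Hsp83, an abundant maternal chaperone RNA, had 78179 and 83590, against 79242 and 78253. Among 20 selenoprotein and redox genes 8 rose and 5 fell, with a median of 0.16. The selenoprotein gene BthD had 1722 and 1498, against 9.31 and 7.64, the GST gene GstE1 had 2085 and 2268, against 844 and 834, and Sod, which encodes superoxide dismutase, had 6601 and 6248, against 5271 and 5109. GstE1 rose by 1.37 (SE 0.07, adjusted p = 7.0e-05) and Sod by 0.31 (adjusted p = 0.0049). BthD was also high in grp fs1, from which Slbp 10/12 differed by 0.48 on the log2 scale (Slbp 10/15 replicate 1 left out). Against Slbp 10/15 no gene of this list passed in either direction. None of the 5 falls of this list held without any 1 of the 4 libraries.

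Among the 12 deepest falls by the rule for named genes were the muscle genes Act57B, Mhc, Tm2, Mlc1, Mlc2, wupA and up, with the collagen gene vkg, the cuticle genes TwdlN and TwdlB, CG31813 and Osi6. Among those whose calls held without any 1 library, Osi6, of the Osiris family, was at 0 in both Slbp 10/12 libraries, against 518 and 501 in wt (at least 190-fold lower, adjusted p = 7.5e-05). CG31813 was at 0, against 533 and 568 (at least 205.2-fold lower, adjusted p = 0.00013), and the cuticle gene TwdlB at 0, against 353 and 549 (at least 168-fold lower, adjusted p = 0.0031). Act57B had an adjusted p of 0.0050, which became 0.068 and 0.065 without wt replicates 1 and 2. The muscle sums given above moved in the same direction.

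The 12 largest rises, among genes reaching a mean of 50 in Slbp 10/12, were mostly uncharacterized, and the calls of those named here held without any 1 of the 4 libraries. CG4415 had 424 and 783 normalized counts in Slbp 10/12, against 5.82 and 0 in wt, and CG34353 had 759 and 855, against 5.82 and 29.5. They rose by 7.79 (SE 0.98, adjusted p = 0.0015) and 5.81 (SE 0.69, adjusted p = 0.0012). Neither was high in grp fs1 embryos, where CG4415 had 0.933 and 2.83 and CG34353 1.87 and 5.65. In Slbp 10/15 embryos CG4415 had 396 and 132 and CG34353 had 1545 and 1596. By contrast CG12560 had 380 and 268 in Slbp 10/12, against 9.31 and 17.5 in wt (+4.54, adjusted p = 0.00039), and 697 and 709 in grp fs1. CG13375 had 902 and 1359, against 27.9 and 39.3, and rose by 5.02 (adjusted p = 8.2e-05), and CG32816 had 842 and 900, against 24.4 and 31.6, and rose by 4.92 (adjusted p = 5.3e-05). Of the 95 rises of at least 4-fold, 25.3% lie on the X chromosome, where 16.8% of all genes tested lie.

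Small structured RNAs varied between the Slbp 10/12 libraries. The snoRNA calls below stand beside 33.3% falls and 15.7% rises over all genes tested, and their share of falls was not above that. Of 107 snoRNA genes 29 fell and 2 rose, with a median of -1.18, but the falls numbered 9 without wt replicate 1, 1 without wt replicate 2, 34 without Slbp 10/12 replicate 1 and 5 without replicate 2. The snoRNA Psi28S-2566 had 5665 normalized counts in Slbp 10/12 replicate 1 and 858 in replicate 2, against 2177 and 2163 in wt, and its value was 0.02 with both (adjusted p = 0.98), -1.34 without replicate 1 (0.0042) and 1.38 without replicate 2 (0.0038). The 7SK RNA, which holds back an elongation kinase, had 50706 and 42661, against 71035 and 69309, and fell by 0.59 (SE 0.10, adjusted p = 0.0036). One of the near-identical copies of U2 snRNA, snRNA:U2:34ABa, had 22.0 and 10.5 in Slbp 10/12, against 3481 and 3845 in wt, and was as low in Slbp 10/15 (13.2 and 15.8) and grp fs1 (20.5 and 33.0). Reads of such copies can be counted for one another, so this value is uncertain.

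The median wt level of the 2415 falls of at least 4-fold was 30.5 normalized counts, against 696 for all genes tested, and their median in Slbp 10/12 was 0.895. A single exon was annotated for 14.7% of them, against 11.6% of all genes and 7.17% of the rises under 4-fold. In the other table the falls of at least 4-fold had a median of 31.6 normalized counts in the early wt libraries. Their medians were 17.4 in the cytoplasmic and 40.4 in the nuclear extracts. For all genes tested these 3 medians were 871, 901 and 639. The falls of at least 4-fold were thus present in early wt embryos at a level near their later ones, and the source of this early RNA was not tested. Their median log2 ratio of nuclear to cytoplasmic extracts was 1.21, against 0.12 for all genes and -0.71 for the falls under 4-fold. In the same table the 24 small nuclear RNAs, which act in the nucleus, had a median ratio of -2.01, and the 88 cytosolic ribosomal protein mRNAs, which are translated in the cytoplasm, one of -2.22. These checks of the library names point opposite ways, and the direction of the ratio is given as the labels have it. The X chromosome held 12.4% of the deep falls.

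The other Slbp genotype gave fewer calls. Set directly against Slbp 10/15, 175 genes (1.79%) were higher and 141 (1.44%) lower in Slbp 10/12, 3.23% together, of which 80 differed by more than 1 on the log2 scale, and at an unadjusted p below 0.05 there were 2221. These counts depended on single libraries, with 3 higher and 3 lower when either wt library was left out of the common fit, 19 and 35 without Slbp 10/12 replicate 1, 18 and 14 without replicate 2, 20 and 14 without Slbp 10/15 replicate 1, and 16 and 10 without replicate 2. For Slbp the difference was 0.01 (SE 0.16) and did not pass. The proline dehydrogenase gene slgA had 1902 and 2506 normalized counts in Slbp 10/12, against 102 and 124 in Slbp 10/15, a difference of 4.27 (SE 0.15, adjusted p = 4.2e-05), and 4506 and 4154 in wt. The noncoding gene pncr009:3L had 535 and 530, against 23.1 and 22.8 (4.48, SE 0.13, adjusted p = 3.1e-05), and 1079 and 1092 in wt. In these genes Slbp 10/12 lay between Slbp 10/15 and wt. CG17322 had 102 and 68.2, against 682 and 775 in Slbp 10/15 (-3.11, adjusted p = 0.0018, and 0.079 and 0.071 without wt replicates 1 and 2).

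Of the 33 early zygotic genes 4 were lower in Slbp 10/12 than in Slbp 10/15 and none was higher. One was CG13711, with 11.9 and 12.2 normalized counts in Slbp 10/12, against 83.4 and 62.4 in Slbp 10/15 (-2.48, SE 0.33, adjusted p = 0.017, and 0.072 to 0.093 without any 1 library of the Slbp or wt groups). None of the 4 passed without either wt library, without Slbp 10/12 replicate 2 or without either Slbp 10/15 library, and 1 passed without Slbp 10/12 replicate 1. Of the proteasome subunits 8 were higher and 1, Rpn2, lower than in Slbp 10/15, none of which passed without any 1 library of these groups or wt. Rpn11, with 3600 and 4222 in Slbp 10/12, against 2524 and 2591 in Slbp 10/15, had a difference of 0.61 (adjusted p = 0.027, and 0.051 to 0.16 in those fits).

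Against grp fs1 embryos, 1042 genes (10.7%) were higher and 1182 (12.1%) lower in Slbp 10/12, 22.8% together, and 681 of them differed by more than 1 on the log2 scale. Without Slbp 10/12 replicate 1 the counts were 482 and 590, without replicate 2 they were 598 and 662, and without grp fs1 replicate 1 they were 628 and 1280. Early zygotic genes were lower: 19 of 33 passed and none was higher, with a median of -2.68. The BMP ligand gene scw had 46.7 and 20.1 normalized counts in Slbp 10/12, against 153 and 376 in grp fs1 (-2.93, SE 0.49, adjusted p = 0.0072). The uncharacterized CG13711 had 11.9 and 12.2, against 255 and 420 (-4.65, SE 0.33, adjusted p = 0.00033), more than the 168 and 153 of wt. The grp fs1 libraries lay above both Slbp 10/12 libraries for both genes. This count ranged from 11 to 21 with 1 library left out, being 11 without either wt library or Slbp 10/12 replicate 2 and 12 without grp fs1 replicate 2.

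Genes with the largest differences from grp fs1 were of another kind. The eye pigment transporter gene w had 25.6 and 41.1 normalized counts in Slbp 10/12, against 10412 and 10311 in grp fs1 and 37.2 and 31.6 in wt. AOX3, an aldehyde oxidase gene, had 3732 and 3774, against 8.40 and 6.59 in grp fs1 and 3350 and 3325 in wt, and CG8152 had 1055 and 890, against 6.53 and 6.59 in grp fs1 and 948 and 825 in wt. In these 3 genes Slbp 10/12 was near wt and grp fs1 stood apart. The prophenoloxidase gene PPO2, at 0.915 and 0 in Slbp 10/12, against 250 and 276 in grp fs1, and the transaminase gene Oat, at 0.915 and 0.874, against 160 and 260, were present in wt embryos at 220 and 219, and at 60.5 and 73.1. Slbp 10/12 was the lower of the 2 genotypes for both (adjusted p of 0.00055 and 0.00032).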

How the data were processed

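RNA of 0 to 180 min embryos was sequenced in 8 libraries of 4 maternal genotypes, 2 each. Per the submitters' processing notes and the study's methods, reads were checked with FastQC 0.10.1, aligned with TopHat to the older BDGP5 build and counted per gene with featureCounts. The deposited signal is these counts divided by 1 size factor per library, which the authors took from DESeq. The FPKM values deposited by the authors divide that signal by gene length and were not used for any test. The step between low values gave back the whole reads in every library (100% of values within 0.01 of a whole number), although for Slbp 10/15 replicate 2 the step is itself close to 1, so that check says little there. Depth gives the precision of low values, and intervals and floors cover counting error only.

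The genes averaging 5 or more in Slbp 10/12 or in wt entered 1 fit of all 8 libraries. It used limma 3.58.1 under R 4.3.3, after adding 1 to each normalized count and taking log2, which understates the change of low genes. Unless another tool is named, each adjusted p is limma's, with Benjamini-Hochberg over the genes of that fit. The main fit held 9770 genes, the filter was applied again when a library was left out, and 0.05 is the threshold. The code was tested on simulated data. Genes with no read in Slbp 10/12 are given against a floor of 3 reads per library, and those with 1 to 3 reads as a ratio with an exact 95% Poisson interval. Alternatives were a pseudocount of 5, other filters, scaling to the upper quartile, the replicate number as a block, DESeq2 1.42.0 and edgeR 4.0.16 on the recovered reads, the compared groups alone, and each library left out. Leaving out a grp fs1 or Slbp 10/15 library from the wt comparison was added after seeing the data.

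The 38 gene lists and the genes named were chosen with earlier results of these data known. The rule for named genes took the 12 largest rises and falls past the threshold, provided that the higher genotype averaged 50 or more and that no library overlapped, Slbp and its neighbours, the processing factors and histone genes, the 4 most abundant members of each list, and the 6 largest differences each way from the other mutants. Further members were named after their values were seen. Positions come from the BDGP6.54 annotation, which held 9561 of the 9770 IDs. Promoter sequences were not searched here.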

Additional observations from a re-analysis of the deposited data

How the results depend on the processing

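Against wt, with 1 library left out, rises numbered 856 to 1507 and falls 1573 to 3454, against Slbp 10/15 the higher and lower genes numbered 3 to 180 and 3 to 131, and against grp fs1 482 to 935 and 590 to 1280. Upper quartile scaling gave 172 rises and 5282 falls against wt, 29 and 28 genes against Slbp 10/15, and 320 and 676 against grp fs1. With at least 5 in every library, 1347 genes rose and 1129 fell against wt, and 273 were higher and 216 lower than in Slbp 10/15. Without a filter 104 were higher than in Slbp 10/15, DESeq2 gave 469 and 461, and the compared groups alone gave 33 and 37, and 188 and 153 against grp fs1. The cause of these differences was not tested. Pseudocount 5 and edgeR kept each of these counts within 1.5 times. On the recovered reads edgeR called 2276 rises and 2584 falls against wt. Samples sharing a replicate number did not deviate together (correlations of 0.011 for Slbp 10/12 with wt and -0.032 with Slbp 10/15). This cannot show whether they were collected or prepared together. The fit with a replicate block gave 1555 rises and 3162 falls against wt. Signs turned with upper quartile scaling for CG11897 (-0.19), ligatin (-0.11), mxc (-0.11), Cpsf100 (-0.13), FLASH (-0.20), BigH1 (-0.02), grp (-0.36), mus304 (-0.06), p53 (-0.10), twe (-0.18), Rif1 (-0.09), Mes2 (-0.12), Stat92E (-0.21), DCP1 (-0.09), Rpn6 (-0.04), Rpt5 (-0.30), mRpS9 (-0.15) and Sod (-0.07). The snoRNA Psi28S-2566 ranged from -1.34 to 1.38 without 1 Slbp 10/12 library. Low depth limits the genes near the floor of 3 reads.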

Other observations

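Groups of related genes outside the lists above were counted after the values had been seen, so they carry no test of their own. All 12 measured Osiris genes, a clustered family of secreted or membrane proteins known from cuticle-forming tissues, fell in Slbp 10/12 embryos, with a median of -6.31, and 8 of them were at 0 in both Slbp 10/12 libraries, against wt means of 9.67 to 509 normalized counts. Of 15 measured miRNA hairpin loci 14 fell (median -2.73), with Slbp 10/12 means of at most 1.81 and wt means of at most 24.7. The highest Slbp 10/12 mean among the Osiris genes was 2.25. In both families every member was therefore tested only because wt reached 5, and none could have come out higher. Their counts of falls follow from that filter and cannot be read against the share of all genes tested. The dpr genes, which encode immunoglobulin proteins of the neuron surface, fell in 12 of 13 cases and rose in 1, and nicotinic acetylcholine receptor subunits fell in 7 of 9. In the 42E cluster of tetraspanins 10 of 15 fell and 1 rose. These counts stand beside 33.3% falls and 15.7% rises over all genes tested, and the older-embryo markers that differed between the same libraries are given above.

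Other groups were chosen in the same way. Of 17 mitochondrially encoded genes 1 rose and none fell (median -0.05), and of 22 aminoacyl tRNA synthetases 2 rose and 1 fell (median 0.04). Of 7 tubulin genes 4 fell and none rose (median -0.54), and 3 were at least 4-fold lower between means. The 34 Gst genes had 7 rises and 11 falls (median 0.01) and the 55 Cyp genes 4 rises and 31 falls (median -1.80). Among biotypes, 59 of 146 lincRNA genes fell and 16 rose, with a median of -0.89.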
